A study of Mus musculus with 8 samples.

Results

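The intermediate promoter sites outside islands were the cytosines of CpGs that lay within 1 kb upstream of a gene start, apart from CpG islands, shores and shelves, and that were neither unmethylated nor fully methylated. A site was included when its methylation level, the percentage of its reads that kept a cytosine after bisulfite treatment, averaged at least 10% and under 80% over 8 GS cell lines, each line counting equally. The rule took 3675 sites in 2645 CpGs of 1188 genes, which was 15.3% of the 23986 promoter sites outside islands and 1.80% of all 203645 promoter sites read in every line. The sites were thus chosen by their measured levels, and the level is given below as a description only. The 8 lines were germline stem (GS) cells, cultured spermatogonia that keep stem cell activity, in medium with FGF2 and GDNF. Control-F1 lines 29, 37, 44 and 45 came from mice born after natural mating (treatment "no"), and ICSI-F1 lines 11, 17, 20 and 21 from mice born after intracytoplasmic sperm injection (treatment "ICSI"). All were labelled B6 and of genotype WT, 1 library was made from each line, and no age was given. The labels were laid out in 2 ways, which divided the lines into library set 1 (29, 37, 11 and 17) and library set 2 (44, 45, 20 and 21), each with 2 lines of either group.

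In mammals, DNA methylation is placed mostly on the cytosine of CpG. Promoters dense in CpG are usually kept free of it, whereas CpG-poor promoters are often methylated in cell types that do not use them. A level between these states means that some molecules of the culture were methylated and others were not. Bulk reads cannot tell apart cells and alleles that differ, whereas the strands of a CpG were read separately here. Reduced representation bisulfite sequencing (RRBS) starts by cutting DNA with MspI at CCGG, whatever the methylation of its inner CpG, so each CCGG cytosine sits at the junction of 2 fragments. The cut leaves a short overhang. RRBS protocols commonly fill it in, and a cytosine at the far end of a fragment can then come from that reaction and not from the cell's DNA.

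The following stretches, 140 bases of mm10 (sequence from RefSeq's GRCm38.p6) in the direction of the gene, show the contrast that recurred among the sites. CpGs with an intermediate strand are in capitals, so an MspI site that held such a CpG reads cCGg. In Matn3 (chr12:8947761-8947900) and Sh3bgrl3 (chr4:134128919-134129058), the capitals are all in MspI sites and the CpGs between them are in lower case.
Matn3: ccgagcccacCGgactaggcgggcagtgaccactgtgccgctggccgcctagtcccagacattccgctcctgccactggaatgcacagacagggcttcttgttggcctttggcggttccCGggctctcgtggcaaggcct
Sh3bgrl3: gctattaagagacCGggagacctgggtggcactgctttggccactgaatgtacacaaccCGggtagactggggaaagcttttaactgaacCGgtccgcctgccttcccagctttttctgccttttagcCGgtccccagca
In Ano2 (chr6:125690279-125690418), Pnoc (chr14:65425681-65425820), Prnd (chr2:131950173-131950312), Lrrc15 (chr16:30284048-30284187) and Gm33326 (chr8:12467792-12467931), the capitals cover all CpGs of the stretch that were read, with or without an MspI site around them.
Ano2: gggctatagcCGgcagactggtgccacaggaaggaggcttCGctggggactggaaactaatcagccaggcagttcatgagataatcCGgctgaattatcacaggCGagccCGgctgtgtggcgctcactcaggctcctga
Pnoc: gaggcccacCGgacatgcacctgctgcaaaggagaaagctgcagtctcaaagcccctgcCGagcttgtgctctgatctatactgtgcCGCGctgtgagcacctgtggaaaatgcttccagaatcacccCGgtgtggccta
Prnd: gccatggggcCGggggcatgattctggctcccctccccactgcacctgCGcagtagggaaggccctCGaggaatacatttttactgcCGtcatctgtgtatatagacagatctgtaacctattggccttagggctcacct
Lrrc15: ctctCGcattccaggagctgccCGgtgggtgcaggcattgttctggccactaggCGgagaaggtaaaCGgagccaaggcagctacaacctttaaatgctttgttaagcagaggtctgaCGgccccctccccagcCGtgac
Gm33326: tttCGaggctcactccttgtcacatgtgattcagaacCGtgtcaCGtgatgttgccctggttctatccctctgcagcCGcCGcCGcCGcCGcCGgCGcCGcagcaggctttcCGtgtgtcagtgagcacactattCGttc
The stretch of Matn3 had 9 CpGs in the table, of which 2 were intermediate, and those were its 2 MspI sites. At base 11, inside the first MspI site, the plus strand averaged 21.6% and ranged over the lines from 14.1% to 25.2%. At base 20 the plus strand averaged 2.33%, and at base 128 only 0.818%. The stretch of Ano2 read differently, since the CpG at base 41, outside any MspI site, averaged 48.7% on the plus strand and ranged from 5.33% in line 37 to 97.3% in line 21. The MspI site at base 11 of Ano2 averaged 53.1% on that strand, with 8.0% in line 37 and 94.4% in line 21. In Matn3 a line's value thus depended on which CpG was read, and in Ano2 on which line was read.

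The sites were concentrated at the low end of the window. Between 10% and 20% there were 862 sites, between 20% and 30% there were 1006, and between 30% and 40% there were 531. Each further step of 10 points up to 80% held 278 to 355 sites. The mean was 35.9%, the median 29.6% and the quartiles 20.6% and 50.1%. Sites at the lower bound were Pml (10.0%) and Crhbp (10.0%) inside it, with Gm44761 (9.997%) and Gm26519 (9.99%) outside. At the upper bound Gm13393 (79.99%) and Ccdc130 (79.97%) lay inside, with Gm4681 (80.07%) and S100z (80.07%) outside. Of the other sites outside islands, 16966 (70.7%) were under 10% and 3345 (13.9%) at 80% or more.

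MspI sites made up a large share of the intermediate sites. Of the 3675 sites, 2368 (64.4%) were in a CCGG, against 12.7% of the sites outside islands under 10% and 17.1% of all promoter sites. The share was 51.7% between 10% and 20%, 78.0% between 20% and 30%, and declined stepwise to 55.5% between 70% and 80%. Highly methylated sites outside islands were also often in a CCGG, 48.6% of those between 80% and 90% and 47.8% of those at 90% or more. Read the other way, 38.7% of the 6124 MspI sites outside islands were intermediate, against 7.32% of the 17862 sites that were not in an MspI site. Islands showed a wider gap, with 53.3% of 21899 MspI sites intermediate against 0.174% of 134243 others. The shares were 38.3% against 3.93% in shores and 45.7% against 9.50% in shelves.

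**Figure D1:**
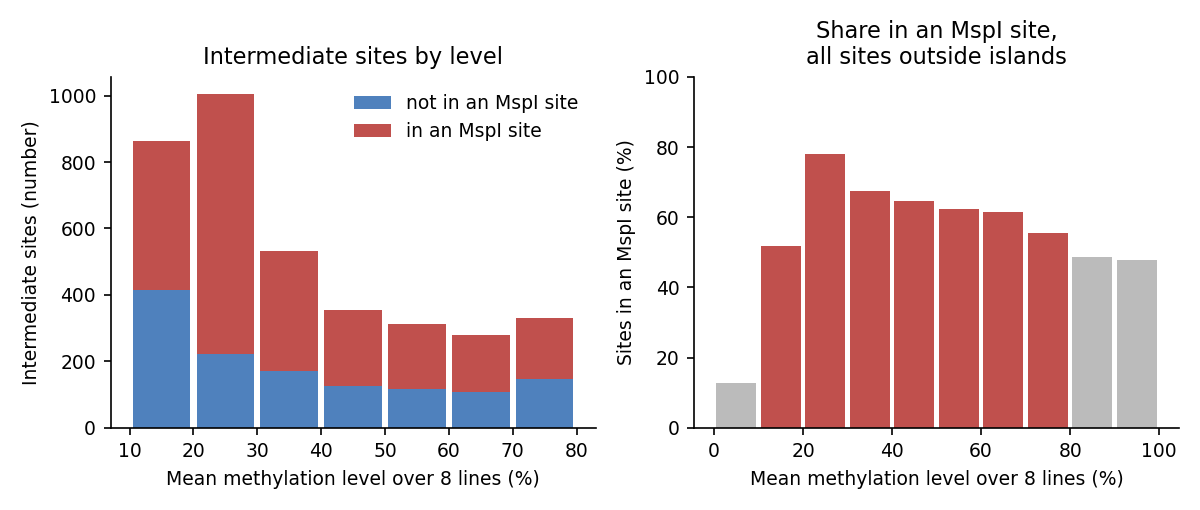
Left, number of intermediate sites (vertical axis) by mean methylation level over the 8 lines in steps of 10 percentage points, split into sites in an MspI site (red) and not (blue). Right, percentage of all sites outside islands that sit in an MspI site by the same level, in red for the intermediate window and in grey beyond it; the share is 12.7% under 10% and highest, 78.0%, between 20% and 30%.

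Most MspI sites that were intermediate stood in otherwise unmethylated DNA. The surroundings of a site were taken as the mean of the CpGs outside MspI sites within 200 bp. Of the 3789 MspI sites outside islands whose surroundings were under 10%, 1645 (43.4%) were intermediate and the median level was 9.56%. Of the 14463 sites that were not in an MspI site and had such surroundings, 141 (0.975%) were intermediate and the median was 2.16%. These 1645 sites were 44.8% of all intermediate sites. Where the surroundings were themselves at 10% to 80%, MspI sites and other sites were intermediate to similar extents, 487 of 620 (78.5%) and 927 of 1117 (83.0%). Where the surroundings were at 80% or more, 28 of 859 MspI sites (3.26%) and 71 of 1426 others (4.98%) were intermediate.

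In unmethylated surroundings the level of an MspI cytosine followed the lengths of the fragments on either side of it. The fragment ahead is the fragment that starts with the cytosine on its own strand, and the fragment behind is the fragment whose 3′ end it forms. With a fragment ahead under 150 bases, 924 sites with a fragment behind of 40 to under 150 bases had a median of 25.1%, and 822 of them (89.0%) were intermediate. With the same length ahead and 150 or more bases behind, 1214 sites had a median of 4.80%, and 66 (5.44%) were intermediate. The bound of 150 bases was set at the read length. As the fragment ahead lengthened with 40 to under 150 bases behind, the median was 43.9% from 150 to under 220 bases (165 sites), 60.4% from 220 to under 300 bases (146 sites) and 93.7% at 300 bases or more (182 sites). With 150 or more bases behind, the medians at the first 2 of these lengths were 5.71% (311 sites) and 6.43% (87 sites). The median of the surroundings was between 2.27% and 2.76% in each of these classes. Of the 1645 intermediate MspI sites in unmethylated surroundings, 1152 (70.03%) had a fragment of 40 to under 150 bases behind. The authors trimmed reads with an option for RRBS, and the part of the fill-in cytosine in these levels was not tested.

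**Figure D2:**
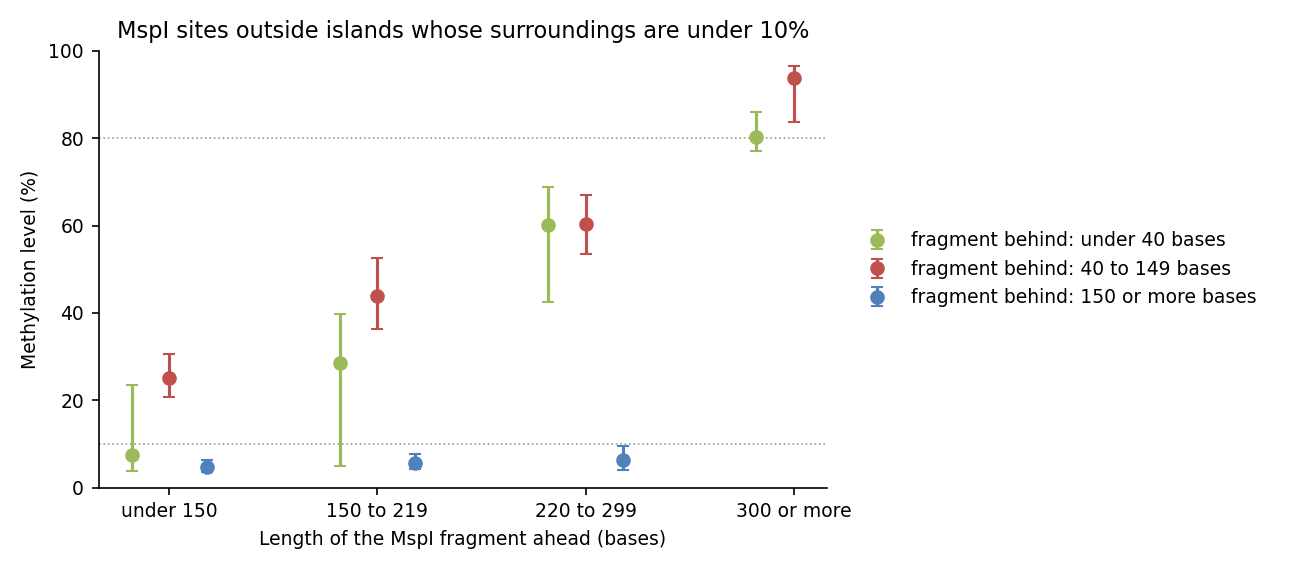
Methylation level (%, median and quartiles over sites) of MspI sites outside islands whose surroundings are under 10%, by the length of the fragment ahead (horizontal axis, bases) and of the fragment behind (colour). Dotted lines mark 10% and 80%; with 150 or more bases behind, the medians stay between 4.80% and 6.43%, and with 40 to under 150 bases behind they run from 25.1% to 93.7%. A class of 2 sites is not drawn.

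The 1307 intermediate sites that were not in an MspI site (35.6%) belonged to 856 CpGs of 393 genes, whereas 795 genes had intermediate sites in MspI sites alone. In all, 1108 genes had intermediate MspI sites, so some promoters held both kinds. The sites not in an MspI site had about the same mean level as the MspI sites (36.3% against 35.6%). In the 302 bases around a site, the median number of CpGs was 8, against 20 for sites under 10% and 7 for sites at 80% or more, all outside MspI sites. Their median GC content was 52.3%, against 61.6% and 51.3%. Their median distance from the gene start was 356 bp, against 73 and 331 bp. Repeats held 13.2% of them, against 3.25% and 17.9%. In each of these measures the intermediate sites stood nearer to the highly methylated sites than to the unmethylated ones. Genes without a given name (predicted or Rik transcripts) held 44.5% of the intermediate sites, against 11.9% of unmethylated sites and 47.3% of highly methylated sites. For the intermediate MspI sites, the medians were 13 CpGs, a GC content of 57.6% and 126 bp from the gene start. Repeats held 6.08% of those MspI sites, and unnamed genes 19.6%.

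Among sites not in an MspI site, the share that was intermediate was larger farther from the gene start and where CpGs were sparse. It was 3.35% up to 200 bp upstream, 10.5% from 200 to 400 bp, 21.01% from 400 to 600 bp, 23.0% from 600 to 800 bp and 26.8% from 800 to 1000 bp. By the number of CpGs around the site it was 28.6% at 0 to 4 CpGs, 23.5% at 5 to 7, 17.8% at 8 to 11 and 1.55% at 12 or more. Annotation (GENCODE M21) put 97.1% of these sites outside any gene and 1.15% in an exon.

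By chromosome, 15.2% of the autosomal sites outside islands were intermediate, from 11.7% on chromosome 3 to 19.4% on chromosome 8. On X the share was 12.02% (66 of 549 sites). On Y it was 75.9% (60 of 79 sites), where the mean level was 39.2% and the mean SD between lines 25.0 percentage points, against 14.6 on autosomes. Many genes of the mouse Y chromosome have near-identical copies, so reads there cannot be placed with certainty and these values are uncertain.

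An intermediate mean came from intermediate levels in every line at 1441 sites (39.2%). At 200 sites (5.44%) some line was under 10% and another at 80% or more. A further 1202 (32.7%) had a line under 10% and none at 80% or more, and 832 (22.6%) the reverse. The range between the highest and the lowest line had a median of 39.2 percentage points. It was under 20 points at 627 sites (17.1%) and 60 points or more at 840 (22.9%). The MspI sites and the others differed in this. Of MspI sites, 54.5% were intermediate in every line and 2.07% had lines beyond both bounds. Of the others, 11.5% and 11.6% did so. These shares were not matched for level. Over all intermediate sites, 66.3% were intermediate in every line at mean levels of 20% to 40%. The share was 9.51% at 10% to 20%, 48.4% at 40% to 60% and 2.80% at 60% to 80%. Of MspI sites, 48.3% had means of 20% to 40%, against 30.1% of the others. The median range was 30.9 points in MspI sites and 51.3 points outside them.

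The SD between the 8 lines averaged 12.5 points over MspI sites and 18.8 points over the others. It depended on the surroundings, being 10.1 points at MspI sites whose surroundings were under 10% and 18.3 points at MspI sites whose surroundings were at 10% or more. At matched levels between 20% and 30%, it was 8.47 points in MspI sites and 19.02 points outside them, the widest gap of any step of 10 points. The gap was smaller at higher levels, with 20.1 against 23.7 points between 50% and 60% and 19.16 against 19.31 points between 70% and 80%. The variance between lines was 6.52 times that given by counting reads over all intermediate sites, 3.67 times at MspI sites in unmethylated surroundings and 8.61 times at sites not in an MspI site. Intermediate sites in islands, most of which are MspI sites, had an average SD of 9.33 points, against 14.7 points outside islands. Counting error was therefore the smaller part of the spread throughout, at a median of 42 (line 37) to 83 reads (line 45) a site, and reads had no molecular identifiers, so it is a lower limit.

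The lines differed in their mean over the intermediate sites. Control-F1 lines 29, 37, 44 and 45 had 31.7%, 27.7%, 40.6% and 35.8%. ICSI-F1 lines 11, 17, 20 and 21 had 33.8%, 35.4%, 39.4% and 42.5%. Line 37 was the lowest line at 31.7% of the sites, and line 21 the highest at 23.6%. The mean absolute difference between a line and the mean of the other 7 was 12.996 ± 2.496 points (SD, n = 8 lines), from 10.5 in line 17 to 17.4 in line 37. Line 37 also had the fewest reads, with a median of 42 a site, and the part of depth in its distance from the others was not tested. Pairs of lines differed by 13.2 to 24.8 points a site (mean absolute difference, median of the 28 pairs 16.9). The median was 16.7 points for pairs of the same group and 16.9 points for pairs of different groups. The correlation of 2 lines over the sites, a description in which neighbouring sites share reads, was 0.335 to 0.732.

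Line means differed between the library sets. The mean over the 4 lines of set 1 was 32.2% ± 3.31 (SD), and over those of set 2 it was 39.6% ± 2.85, with no overlap of the sets (difference 7.40 points, two-sided exact permutation p = 0.0286, the smallest p that 4 lines against 4 allow). Of the sites, 72.1% were higher in set 2. The unmethylated sites outside islands, which had no part in the rule's window, also had a higher mean in set 2, 3.83% ± 0.535 against 1.85% ± 0.470. Library set, sequencing depth and any difference between the lines that were put into each set cannot be told apart.

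**Figure D3:**
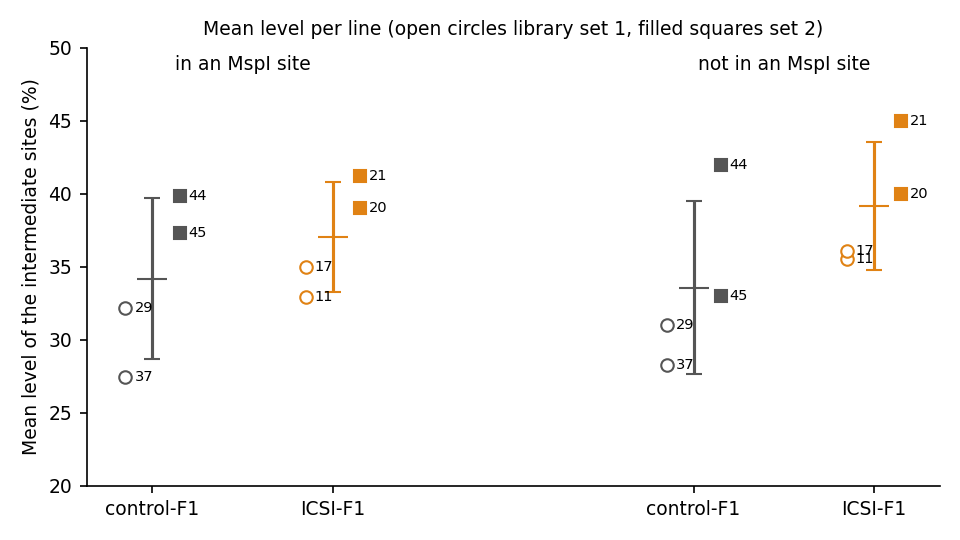
Mean methylation level (%) of the intermediate sites in each of the 8 lines, for 2368 sites in an MspI site (left) and 1307 not in an MspI site (right). Circles are lines of library set 1, squares lines of set 2, numbers name the lines, and bars show the group mean ± SD (n = 4 lines). The groups overlap in both panels. In the left panel the lines of set 2 lie above all those of set 1.

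The choice of sites was then read in lines that had no part in it. Of 3593 sites whose mean over set 1 was in the window, 3011 (83.8%, 95% Wilson interval 82.6% to 85.0%) were in the window over set 2, 146 were under 10% and 436 at 80% or more. Of 4062 sites chosen in set 2, 3011 (74.1%, interval 72.8% to 75.4%) were in the window over set 1, 990 were under 10% and 61 at 80% or more. The sites that left the window thus lay mostly on the side of the difference between the sets. The intervals treat sites as independent, which neighbours are not. They cover the sampling of sites only, and neither the counting of reads nor the spread between lines.

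Neighbouring CpGs agreed to an extent that depended on the MspI sites. Of the 3675 sites, 3570 (97.1%) had another CpG in the table within 200 bp, at a median of 14 bp. The median difference in level within a line was 17.7 ± 0.876 points (SD, n = 8 lines). The neighbour was under 10% for 49.02% of the sites, at 10% to 80% for 46.1% and at 80% or more for 4.85%. For comparison, 91.2% of unmethylated sites had a neighbour under 10%, and 86.9% of highly methylated sites a neighbour at 80% or more. Where neither CpG was in an MspI site (816 pairs), the median difference was 8.47 ± 1.04 points, and the neighbour was at 10% to 80% in 82.2%. Where the intermediate site was in an MspI site and its neighbour was not (2031 pairs), it was 22.3 ± 1.31 points, and the neighbour was under 10% in 76.5%. Intermediate levels outside MspI sites were thus shared by adjacent CpGs, and those of MspI sites mostly were not.

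The strands of a CpG gave the same picture. Where both strands of an intermediate CpG outside MspI sites were read (562 CpGs), they differed by a median of 7.77 ± 1.11 points, and the correlation of their means over CpGs was 0.960. In MspI sites (1107 CpGs) they differed by 21.1 ± 2.66 points, and the correlation was −0.165. Strands of an MspI site have their fragments ahead and behind exchanged. In Gm33326 at base 93, the plus strand, with 151 bases ahead and 107 behind, averaged 45.3%, and the minus strand, with 107 ahead and 151 behind, averaged 11.8%. In Pnoc at base 129, the strands averaged 24.0% (119 bases ahead and 256 behind) and 78.4% (256 ahead and 119 behind).

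With distance, agreement outside MspI sites faded within the promoter. The median difference was 6.86 points at 2 to 10 bp, 7.83 at 26 to 50 bp, 11.8 over 100 to 200 bp and 23.0 over 400 to 800 bp, next to 26.6 ± 3.64 points for intermediate sites at least 10 kb apart. The other CpG was under 10% in 15.4% of pairs at 2 to 10 bp and in 92.2% over 400 to 800 bp, whereas both sites were intermediate in the pairs at least 10 kb apart. The deviations of the lines from a site's mean were also shared, with a correlation over pairs of 0.770 at 2 to 10 bp, 0.538 over 100 to 200 bp and 0.0915 over 400 to 800 bp. Such pairs share reads at short distances. Between an MspI site and a CpG outside it, the difference was 23.6 points at 2 to 10 bp and 28.1 over 400 to 800 bp, with correlations of 0.279 and 0.108.

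**Figure D4:**
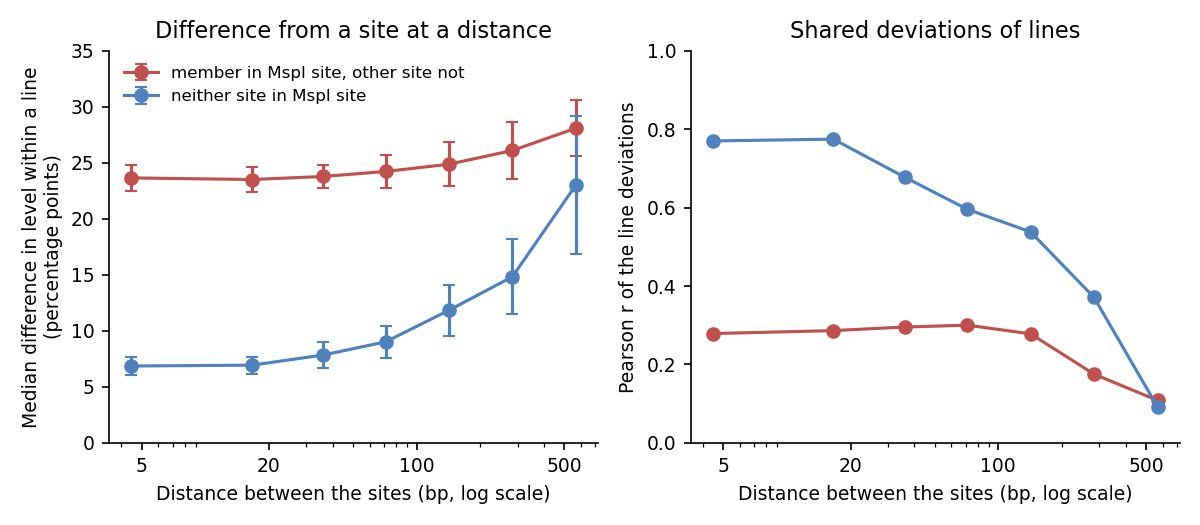
Left, median absolute difference in level within a line (percentage points, mean ± SD over 8 lines) between an intermediate site and another CpG at the given distance (bp, log scale). Right, Pearson correlation of the deviations of the 8 lines for the same pairs. Pairs without an MspI site (blue) run from 6.86 points and 0.770 at 2 to 10 bp to 23.0 points and 0.0915 over 400 to 800 bp, and pairs of an MspI site with a CpG outside it (red) start at 23.6 points and 0.279.

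The next question was whether the intermediate sites differed between ICSI-F1 and control-F1 lines, a contrast that the rule did not use. The mean over all sites was 34.0% ± 5.51 in control-F1 against 37.8% ± 3.94 in ICSI-F1 lines (SD, n = 4 lines each). The difference of 3.82 points was within the spread of the lines (p = 0.286 in a two-sided exact permutation test with 70 arrangements). The arrangements mixed the library sets, so the difference between sets counted in that spread. Shuffling within sets was not done. It was 4.87 points within set 1 and 2.77 points within set 2. Outside MspI sites it was 5.57 points (33.6% ± 5.93 and 39.1% ± 4.38, exact permutation p = 0.171), with 6.16 points in set 1 and 4.98 points in set 2. At MspI sites in unmethylated surroundings it was 1.24 points (exact permutation p = 0.771). The SD of the lines within a group averaged 14.6 points in control-F1 against 12.8 points in ICSI-F1 (difference −1.77, exact permutation p = 0.486), and without control line 37 the difference was 0.0264.

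The criterion applied here is a looser reading of the study's rule, which excluded sites with a reversed change in any sample. It takes sites whose group means differ by more than 20 percentage points. In addition, every ICSI-F1 line must differ from the control-F1 mean in that direction. The criterion is a rule without a test. It took 287 intermediate sites in 135 genes (7.81%) as higher in ICSI-F1, against 0.274% of all promoter sites, and 71 in 34 genes (1.93%) as lower, against 0.0506% of all. A site near 0% or 100% has little room to differ by 20 points, so nothing is read from the larger share among intermediate sites. In islands 0.512% and 0.126% of the sites in the same window passed in the 2 directions. MspI sites in unmethylated surroundings, 44.8% of the sites, gave 19 and 1 of the calls, whereas sites not in an MspI site gave 171 (13.1% of them) and 47 (3.596%). Groups that did not overlap at all were found at 72 sites (1.96%) higher in ICSI-F1, against 0.0673% of all sites, and at 14 (0.381%) lower, against 0.00884%.

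No intermediate site passed a test. A quasi-binomial logistic model of the reads at each site, with the dispersion moderated across sites by limma, called 0 of 196818 testable promoter sites (0%) at an adjusted p of 0.05 (Benjamini-Hochberg). The smallest adjusted p of an intermediate site was 0.129. At an unadjusted p under 0.05 there were 536 sites higher in ICSI-F1 (14.6%, against 2.6% of all testable sites) and 179 lower (4.87%, against 4.47%). The other models called 0 intermediate sites as well, and their counts at an unadjusted p under 0.05 were 244 with each site's own dispersion, 578 with library set as a covariate, 361 with limma on log2 ratios and 705 with the scaling of reads undone. Shares over all sites are not given for these counts, so nothing is read from them. Without control line 44, the moderated model called 42 intermediate sites in 30 genes (34 higher and 8 lower, of which 27 were not in an MspI site) and 70 of 192970 sites in all. The shares were 1.14% and 0.0363%. Leaving out any other line gave 0 to 9, at most 0.245% of intermediate sites and 0.00819% of all. In set 1, 623 intermediate sites were higher in ICSI-F1 by more than 20 points. Of these, 68.1% were higher in set 2 as well, and 19.6% by more than 20 points, next to 56.2% and 10.7% of all intermediate sites. For the 226 sites lower by that much in set 1, 53.1% were lower in set 2 and 14.2% by more than 20 points, next to 4.63% of all.

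The sites with the largest differences among those without overlap and with 30 or more reads in every line were in named genes of varied function, 4 higher and only 3 lower in ICSI-F1. All lay outside annotated genes, and those of Gsn, Trpm6, Hapln3, Rnf224 and Zfp354c were in MspI sites. No CpG outside MspI sites was read within 200 bp of the sites of Gsn, Hapln3 and Zfp354c. The adjusted p of the 7 sites was 0.176 to 0.702 in the moderated logistic model.
In Gsn, which encodes the actin-severing protein gelsolin, the cytosine at chr2:35255399 was at 44.7%, 6.93%, 57.7% and 58.1% in control-F1 lines 29, 37, 44 and 45, and at 88.9%, 80.6%, 68.5% and 100% in ICSI-F1 lines 11, 17, 20 and 21. The means were 41.9% ± 24.1 and 84.5% ± 13.3, and the difference was 58.9 points in set 1 and 26.3 in set 2. It is in an MspI site at −981 from the gene start, and none of the gene's 2 other intermediate sites differed in the same direction.
In Trpm6, a magnesium channel, the cytosine at chr19:18749129 was at 57.1%, 28.8%, 35.1% and 52.4% in the control-F1 lines and at 76.5%, 90.3%, 69.6% and 97.1% in the ICSI-F1 lines. The difference was 40.4 points in set 1 and 39.6 in set 2, and all 5 other intermediate sites of the promoter were higher in ICSI-F1. Its surroundings outside MspI sites were at 34.4% in control-F1 against 63.8% in ICSI-F1 lines.
In Pla2g3, a secreted phospholipase, the cytosine at chr11:3488093, outside any MspI site, was at 11.5%, 29.7%, 46.1% and 22.2% in control-F1 and at 73.1%, 73.6%, 75.4% and 46.2% in ICSI-F1 lines. Lines 44 and 21 almost met, and all 13 other intermediate sites of the promoter were higher in ICSI-F1. The difference was 52.8 points in set 1 and 26.6 in set 2.
Hapln3, a link protein of the hyaluronan matrix, had at chr7:79131056, in an MspI site at −38 from the gene start, 10.1%, 20.5%, 12.5% and 4.00% in control-F1 against 66.7%, 25.5%, 61.5% and 44% in ICSI-F1 lines. All 3 other intermediate sites of its promoter were higher too.

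Among the sites lower in ICSI-F1, the largest difference was in Olfr212, an olfactory receptor gene. Its cytosine at chr6:116506306 was at 95.7%, 95.7%, 79.6% and 88.6% in control-F1 and at 74.3%, 29.9%, 58.0% and 4.35% in ICSI-F1 lines. The ICSI-F1 lines thus ranged widely, with a SD of 30.9 points against 7.60 in control-F1. In Rnf224, which encodes a RING finger protein, the cytosine at chr2:25237043 was at 49.4%, 61.8%, 64.8% and 69.2% in control-F1 and at 23.8%, 32.2%, 47.5% and 37.5% in ICSI-F1 lines, and all 10 other intermediate sites were lower. In Zfp354c, a zinc finger gene, the cytosine at chr11:50828460 was at 79.4%, 87.8%, 100% and 86.1% against 64.1%, 68.7%, 65.2% and 64.9%. The ICSI-F1 lines of Zfp354c were close together (SD 2.02 points) and its 3 other intermediate sites were lower as well. Its difference of −22.6 points was −17.2 in set 1 alone and −18.7 without line 44, under the 20 points of the criterion.

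Intermediate CpGs were unevenly divided among promoters. There was 1 such CpG in 560 genes, 2 in 293 and 5 or more in 107, which together held 1110 sites (30.2%). Of 994 genes with at least 3 CpGs outside islands and an intermediate site, 124 (12.5%) were intermediate at every CpG. Over the 107 promoters, the SD between lines of the promoter's mean reached 35.3 points, with a median of 13.1. The median was 5.07 in the 8 promoters whose intermediate sites were all in MspI sites, and 15.9 in the 45 with at least 5 intermediate CpGs elsewhere. Of the 107, 78 were higher in ICSI-F1 and 29 lower, as were 61.4% and 38.6% of all intermediate sites, and 90 were higher in library set 2. The groups did not overlap in 6 of the 107, of which 4 were higher in ICSI-F1. The share over all promoters was not computed, so nothing is read from that count. Promoter means were not tested.

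In the promoters in which the lines differed most, levels ran over most of the scale. Ano2, a calcium-activated chloride channel of sensory neurons, had 92.0%, 14.6%, 85.2% and 20.3% in control-F1 lines 29, 37, 44 and 45 and 13.4%, 55.6%, 49.7% and 98.3% in ICSI-F1 lines 11, 17, 20 and 21 (mean over 5 CpGs). Each group held lines near both ends of that range, with group means of 53.0% and 54.3%. The 3 sites of Ano2 outside MspI sites ran the same way, from 4.34% to 98.0%. Cpsf4l, related to a subunit of the cleavage and polyadenylation machinery, had 90.9%, 36.7%, 85.4% and 14.3%, then 9.95%, 56.4%, 59.6% and 88.2%. In both promoters lines 29, 44 and 21 were the 3 highest, and lines 37, 45 and 11 the 3 lowest. Sstr3, a somatostatin receptor, had 83.5%, 46.4%, 93.6% and 24.2%, then 34.1%, 24.8%, 49.7% and 91.0%, again with lines 29, 44 and 21 highest. Pnoc, the precursor of nociceptin, stood out for line 21 at 93.9%, while the other 7 lines were between 7.68% and 40.2%, and its SD of 27.0 points was 10.1 without line 21. Trf, which encodes the iron carrier transferrin, had 88.7% in line 21 and 12.4% to 56.5% in the others.

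Promoters with a small SD between lines were made up mainly of MspI sites. Matn3, a cartilage matrix protein, ranged from 19.8% to 29.8% (SD 3.29 points), and Sh3bgrl3, a small thioredoxin-like protein, from 28.1% to 37.2% (SD 3.58). Their 10 and 9 intermediate sites were all in MspI sites. The 28 and 6 sites of these promoters outside MspI sites averaged 2.35% and 1.69%. Hormad1, a protein of the meiotic chromosome axis, had 9 of 10 intermediate sites in MspI sites and ranged from 17.2% to 28.9%, with its 37 sites elsewhere at 4.25%. Eps8l2, an actin regulator of hair cell stereocilia, was the exception with 4 of 9 outside MspI sites, and its sites outside MspI sites averaged 8.99%.

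The promoters with the most intermediate CpGs had them in and outside MspI sites. Madcam1, an adhesion molecule of gut vessels, had 11 such CpGs, and its mean was 9.31%, 28.2%, 17.2% and 29.7% in control-F1 against 41.9%, 20.5%, 24.1% and 29.4% in ICSI-F1 lines. Prnd, which encodes the prion-like protein doppel of the testis, also had 11, with 18.4%, 11.5%, 24.5% and 32.9%, then 31.8%, 30.1%, 27.2% and 64.5%. Without MspI sites, Prnd had means of 19.5% in control-F1 against 37.9% in ICSI-F1 lines, and line 21 was again the highest (58.9%). The SD between lines of Prnd was 15.6 points with line 21 and 7.79 without it. Fgf6, a growth factor of muscle, had 10, with 41.6% in line 29 and 14.3% to 17.5% in the other control-F1 lines, and 13.6%, 17.3%, 37.4% and 54.1% in the ICSI-F1 lines. Clpsl2, which encodes a colipase-like protein, had 10, with 22.2%, 15.8%, 54.7% and 56.8%, then 29.9%, 28.8%, 58.5% and 32.8%. In Clpsl2 the 3 highest lines were all of set 2. Irgm1, an interferon-induced GTPase, ranged from 15.0% in line 37 to 52.8% in line 21, and its sites outside MspI sites averaged 12.4%. Its SD was 11.2 points, and 6.99 without line 37. Lrrc15, a leucine-rich repeat membrane protein, ranged from 5.95% in line 37 to 56.9% in line 29, both of control-F1.
Of the unnamed genes, Gm33326 had the most, 15 intermediate CpGs, and its groups did not overlap, as in 6 of the 107 promoters. It was at 6.88%, 4.91%, 8.47% and 9.14% in control-F1 and at 15.0%, 25.3%, 12.9% and 39.6% in ICSI-F1 lines (7.35% ± 1.88 and 23.2% ± 12.2). The difference was 14.3 points in set 1 and 17.4 in set 2, under the 20 points of the study's criterion. Its SD was 11.7 points with line 21 and 6.89 without it. Gm50162 had 14, with a mean from 8.98% to 46.7% and overlapping groups.

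**Figure D5:**
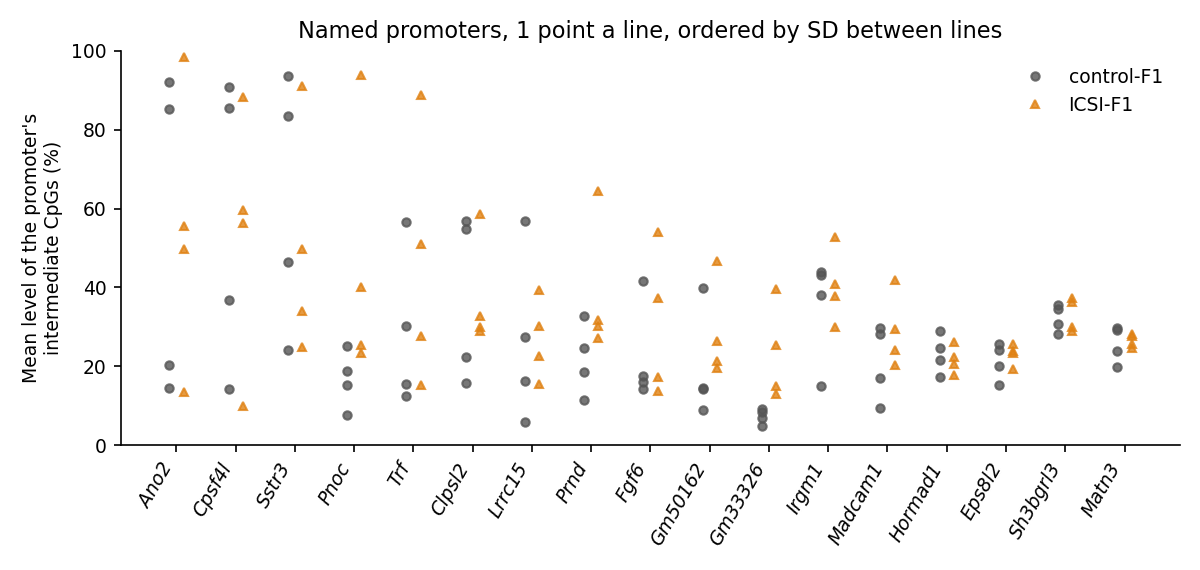
Mean methylation level (%) of the intermediate CpGs of each named promoter in each of the 4 control-F1 lines (circles) and 4 ICSI-F1 lines (triangles), ordered by the SD between lines. In Ano2 the lines run from 13.4% to 98.3% with both groups at both ends, in Matn3 all lie between 19.8% and 29.8%, and in Gm33326 every ICSI-F1 line lies above every control-F1 line.

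Among the gene lists, intermediate sites were spread over all groups, and their shares of sites differed once MspI sites were left out. Over all genes with a site outside islands, 1188 of 2536 (46.8%) had an intermediate site, and 7.32% of the sites not in an MspI site were intermediate. Olfactory, vomeronasal and taste receptors were intermediate at 20 of 60 such sites (33.3%), keratin, claudin and connexin genes at 14 of 79 (17.7%), immune receptors and cytokines at 24 of 180 (13.3%) and ion channels at 23 of 228 (10.1%). Germ cell and spermatogonial genes had 8 of 96 (8.33%), haploid sperm genes 2 of 23 (8.70%), solute carriers 19 of 388 (4.90%), imprinted genes 1 of 28 (3.57%) and zinc finger genes 2 of 689 (0.290%). Counted by gene, 393 of 2099 genes (18.7%) with a site not in an MspI site had an intermediate one there. Every list but the zinc finger genes (2 of 76, 2.63%) was above that share. Solute carriers had 11 of 45 genes (24.4%), imprinted genes 1 of 5 and olfactory, vomeronasal and taste receptors 7 of 15. The order by sites thus rests on few genes. With MspI sites included, the zinc finger genes had 78 intermediate sites in 35 of 86 genes and the solute carriers 80 in 32 of 49. Nearly all intermediate sites of zinc finger genes, which tend to start in CpG-dense DNA, were thus in MspI sites. The remaining counts were 6 of 10 germ cell genes, 2 of 4 haploid sperm genes, 4 of 6 imprinted genes, 8 of 24 chemoreceptors, 9 of 20 keratin, claudin and connexin genes, 20 of 39 immune genes and 11 of 25 ion channels.

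In the germ cell list, 79.2% of 130 sites outside islands were under 10%, next to 70.7% of all sites outside islands, 88.5% for zinc finger genes and 78.1% for ion channels. The share therefore does not check the labelled cell type, and expression was not analysed here. Sycp2, a lateral element protein of the synaptonemal complex, had 6 of 8 intermediate sites outside MspI sites. Those 6 averaged 16.2%, 29.6%, 35.9% and 30.3% in control-F1 against 26.7%, 31.0%, 34.9% and 61.7% in ICSI-F1 lines, with line 21 the highest. Sycp2l, its paralog, had 1 of 3 outside MspI sites, and its sites outside MspI sites averaged 4.08%. Adam2, a sperm surface protein, had all 3 in MspI sites, and its other sites averaged 3.27%.

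In the chemoreceptor list, Olfr212 had 80.1% ± 18.7 in control-F1 against 48.46% ± 18.7 in ICSI-F1 lines over its 6 intermediate sites, with line 44 (52.2%) within the range of ICSI-F1. Olfr1447 ran from 15.8% in line 29 to 87.3% in line 11. The vomeronasal receptor Vmn2r60 was at 35.4%, 16.2%, 45.9% and 13.1% in control-F1 and at 4.94%, 13.4%, 12.5% and 16.0% in ICSI-F1 lines. In Olfr212 and Vmn2r60 the highest levels were in control-F1 lines. Among ion channels, Trpm6 was the gene without overlap, at 39.3%, 30.3%, 32.9% and 39.2% in control-F1 against 61.1%, 64.3%, 57.0% and 68.1% in ICSI-F1 lines over 6 sites. P2rx7, an ATP-gated channel of immune cells, had 10 of 11 sites outside MspI sites and ranged from 33.4% to 66.2%, and Kcnn3, a calcium-activated potassium channel, ranged from 10.7% to 24.6% with 4 of 5 in MspI sites. In the keratin, claudin and connexin list, the hair keratin gene Krt35 ranged from 35.5% to 100%, Krt23 from 48.9% to 98.0% and Cldn16, a tight junction protein of the kidney, from 17.5% to 78.8%.

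Among immune genes, Tnfsf13b, the B cell survival factor BAFF, had lines 44 and 11 at 49.7% and 58.2% and the other lines between 7.33% and 17.3%. Tnfsf4, the ligand of OX40, ranged from 46.5% to 77.4%. Ifnar1, a subunit of the type I interferon receptor, ranged only from 22.6% to 28.0% over 8 sites, all in MspI sites, and its 22 sites elsewhere averaged 1.87%. Slc9a3, a sodium-proton exchanger, was similar at 22.8% to 27.3% over 8 MspI sites, with 48 sites elsewhere at 2.02%. Slc45a1 had 5 of 7 in MspI sites and ranged from 17.6% to 43.6%, while Slc17a7, a vesicular glutamate transporter, had its 4 outside MspI sites and ranged from 4.59% to 38.5%. Of the zinc finger genes, Zfp69, Zbtb24 and Zfp112 had 8, 6 and 3 intermediate sites, all in MspI sites. Their other sites averaged 2.84%, 2.40% and 2.17%. In Zfp112 the groups did not overlap, with 22.7% to 40.8% in control-F1 against 16.5% to 20.9% in ICSI-F1 lines. The difference in Zfp112 was not tested, and its promoter was picked from many.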

How the data were processed

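RRBS libraries (Zymo-Seq kit, MspI digestion, paired reads of 150 bases) were made from 8 GS cell lines, 4 control-F1 and 4 ICSI-F1. The authors trimmed reads with Trim Galore 0.5.0, with its options for RRBS, paired and non-directional reads. They mapped the reads with Bismark 0.20.0 on mm10 and called cytosines with methylKit (1.16.0 in the submitters' processing notes). They dropped cytosines with fewer than 10 reads or with coverage beyond the 99.9th percentile, and joined the lines with strands apart. The deposited columns hold methylated and unmethylated reads that the authors scaled between lines and rounded, and were therefore treated as a score and not as raw counts. Promoters were 1 kb upstream of Ensembl 87 starts. Levels were computed here as methylated reads over both, with lines weighted equally.

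Line means were compared by exact permutation tests over 70 arrangements. Sites were tested in a quasi-binomial logistic model over all promoter sites with dispersion moderated by limma 3.58.1 (R 4.3.3) on 6 residual degrees of freedom and Benjamini-Hochberg adjustment, after a check on simulated data. Lines are separate cultures with 1 library each. Positions were compared with RefSeq's GRCm38.p6, in which 99.9995% of the sites were at CG. Named genes were, by rule, the 6 named and 2 unnamed genes with the most intermediate CpGs, the 5 named genes with the largest and the 5 with the smallest SD among those with 5 or more such CpGs, up to 4 sites per direction without overlap and with at least 30 reads, up to 3 genes per list with at least 2 such CpGs, and the 2 sites next to each bound. Of the genes the rule took, 1 is not reported here. The sites and lists were chosen with earlier results of these data known, and the division by MspI site was added after seeing the data. Alternatives were other coverage minimums, bounds, thresholds and models, joined strands, a single library set, and leaving out each line.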

Additional observations from a re-analysis of the deposited data

Results flagged for a closer look

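In 66 groups of 4 lines, the highest or the lowest line was set against its nearest neighbour, and 5 groups had a gap past the critical value of Dixon's test at the 95% level, which chance would pass in about 5% of groups. In ICSI-F1, line 11 had a median neighbour difference of 16.9 points, with the nearest line at 17.8. The promoter of Prnd was at 64.5% in line 21, with the nearest ICSI-F1 line at 31.8%. The promoter of Fgf6 was at 41.6% in control-F1 line 29, with the nearest at 17.5%. The promoter of Clpsl2 was at 58.5% in ICSI-F1 line 20, with the nearest at 32.8%. The Pla2g3 site was at 46.2% in ICSI-F1 line 21, with the nearest at 73.1%. Line 21 was far from the other ICSI-F1 lines in 2 of the 5.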

How the results depend on the processing

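Leaving out each line in turn gave a group difference in mean level of 1.74 to 6.03 points, a deviation of a line of 12.4 to 13.5 points, a neighbour difference of 17.5 to 17.9 points and a share intermediate in every line of 39.97% to 43.4%. The criterion of 20 points took 248 to 454 sites as higher in ICSI-F1 (454 without control line 44) and 71 to 110 as lower (109 without control line 45, 110 without ICSI line 20 and 108 without ICSI line 21). The logistic model called 0 to 42 sites, at most 1.14% of the intermediate sites against 0.0363% of all. The difference in within-group spread was −3.57 to 0.0264 points and reversed only without control line 37 (0.0264). The sites were kept fixed, so leaving out a line can only keep or raise the share intermediate in every line. Leaving out an ICSI-F1 line also leaves fewer lines that the criterion requires to agree. The cause of the moves in the other results was not tested.

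With at least 20 reads in every line, 43.7% of the sites were intermediate in every line and 85.6% of those chosen in set 1 were so in set 2. With at least 30 reads, these were 47.8% and 89.0%, and the criterion took 189 and 39 sites, out of fewer. Joining strands gave 50.2%, 89.4% and a neighbour difference of 16.6 points, and bounds of 20% and 80% gave 48.3%, 78.5% and 21.1 points. Sites outside MspI sites, an alternative added after seeing the data, gave 11.5%, 81.2% and 8.47 points, a line deviation of 16.6 points and 171 and 47 sites. The criterion took 598 and 216 sites in set 1 alone, 164 as lower in set 2 alone, 99 and 24 at 30 points, 130 as lower at 15 points, and 72 and 14 without overlap. For the criterion, shares over all promoter sites are given above only for the main setting and for groups without overlap. Nothing is read from its other counts, and in a single set only 2 ICSI-F1 lines had to agree. Neighbours on the opposite strand differed by 18.7 points, and choosing in set 2 gave 74.1%. The 7 named sites were chosen for groups without overlap, so leaving out lines or using a single set could not change their direction. Zfp354c was under 20 points without control line 44 (−18.7) and in set 1 alone (−17.2). The SD between lines moved by over 1.5 times for Pnoc (10.1), Prnd (7.79) and Gm33326 (6.89) without ICSI line 21, and for Irgm1 (6.99) without control line 37. Alternatives were not run for the genes named from lists. Depth limits sites with the minimum of 10 reads most. Lines were not paired, because no line of a group is tied to a single line of the other. The permutation tests did not use library set as a block. With library set, which holds 2 lines of each group, as a covariate, the model called 0 intermediate sites.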
